A study of Mus musculus with 162 samples.

Results

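The 10 genes reported here are 8 heat shock genes (Hspa1a, Hspa1b, Hsp90aa1, Hsph1, Dnajb1, Hspb1, Hspa8 and Hspd1) and 2 cold-inducible genes (Cirbp and Rbm3), out of 53686 gene symbols counted. They were chosen as genes whose transcripts respond to heat and cold, since body temperature can fall when mice go without food. The choice was made with earlier results of these data known. The libraries come from adult C57BL/6J males, 8 to 9 weeks old and group-housed under 12 h light and 12 h dark. Food was removed 2, 8, 12, 18 or 22 h before a common collection time early in the dark phase, and the 0 h mice fed ad libitum. Each time has 3 mice, and each mouse gave all 9 organs: olfactory bulb (OB), telencephalon with diencephalon (BRN), cerebellum (CBL), midbrain, pons and medulla (BST), stomach (STM), liver (LIV), interscapular brown fat (iBAT), perigonadal white fat (pgWAT) and posterior-subcutaneous white fat (psWAT). The sample titles give an organ, a time and a replicate number. Libraries of the same time and replicate number were taken to come from the same mouse in all organs. Numbered in that way, mice 1 to 3 were fasted 0 h, 4 to 6 for 2 h, 7 to 9 for 8 h, 10 to 12 for 12 h, 13 to 15 for 18 h and 16 to 18 for 22 h. Below, 3 comparisons are used: 18 and 22 h against 0 h, 8 and 12 h against 0 h, and 18 and 22 h against 8 and 12 h. The comparisons with 0 h share the same 3 mice as reference.

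Heat shock proteins are chaperones: they hold, refold or pass on proteins that have lost their shape, and heat shock factor 1 drives many of their genes when unfolded protein accumulates. The HSP70 proteins bind exposed hydrophobic stretches, J proteins such as Dnajb1 deliver substrates to them, and nucleotide exchange factors such as Hsph1 release the substrate. Cirbp and Rbm3 are small RNA-binding proteins whose transcripts accumulate when cells are cooled by a few degrees and decline when they are warmed. Both groups also follow the daily swing of body temperature in mice, heat shock transcripts with the warm phase and Cirbp with the cool one.

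The libraries hold 130701 to 27801717 counted reads (median 8696326). Lane and library series are read below from the column names, as the lane number and the leading digits of the library ID. The names give no flow cell, so libraries with the same lane number need not have run together. All were used but 5 with a low total for their organ (BRN of mice 9 and 13, STM of mouse 12, iBAT of mouse 16, psWAT of mouse 17), and the others have at least 3045845 counts each. A gene with 3 counts lies at 0.108 to 0.985 CPM in a retained library, so values of Hspa1a and Hspa1b near 1 CPM rest on few reads. All 10 members passed the expression filter in all 9 organs, which gives 90 pairs of member and organ. Marker genes matched the organ labels: median CPM was 213 for Doc2g in OB, 57.4 for Tbr1 in BRN, 1439 for Cbln3 in CBL, 450.2 for Slc6a5 in BST, 16140 for Gkn1 in STM, 95250 for Alb in LIV, 5396 for Ucp1 in iBAT, and 4450 in pgWAT against 328 in psWAT for Adipoq. The psWAT libraries also hold leukocyte transcripts, with a median summed CPM of 3511 beside 2171 for adipocyte markers. Compared with the mean profile of each organ, the psWAT library of mouse 12 is nearer CBL (r 0.839) than psWAT (0.814), with cerebellar markers at a summed 1897 CPM where the next psWAT library has 21.1. The pgWAT library of mouse 17 is about as near STM (0.843) as pgWAT (0.845), with Hspa1b at 108.6 CPM where the other 22 h libraries have 12.8 and 15.8. In BRN the library of mouse 14 is the least like its own organ (r 0.845). These 3 and the BRN library of mouse 6, which on this measure does not stand apart (r 0.967), were picked by hand, and some results without the 4 are given. That choice left in the iBAT library of mouse 17, the least like its own organ in iBAT (r 0.826, below the BRN and pgWAT libraries just named), the BRN library of mouse 11 (r 0.894, with the most red cell transcript in BRN, 456 CPM summed), and the psWAT library of mouse 7, nearer pgWAT (0.936) than psWAT (0.862). It also left in the pgWAT libraries of mouse 15, with summed testis and epididymis markers at 3376 CPM, and of mouse 14, with hepatocyte markers at 3613 CPM. The STM library of mouse 3, the least like its own organ in STM (r 0.925), was left in too, with exocrine pancreas markers at 516 CPM.

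Several members have close relatives in the genome, and this limits what a count of uniquely mapped reads can say. Hspa1a shares 39.7% of its 150-base exon windows with other genes, chiefly Hspa1b, and Hspa1b shares 40.5% with Hspa1a, so the split between the 2 is uncertain. The shares are 55.4% for Hspa8, 36.6% for Hspb1, 36.2% for Hsp90aa1, 18.6% for Hspd1 and 2.42% for Rbm3, in each case with pseudogenes, and 0 for Hsph1, Dnajb1 and Cirbp. Exons of Hspa1a overlap Gm20481 on the other strand by 564 bases, those of Rbm3 overlap Rbm3os by 94, and those of Hspd1 and Hspe1 also overlap.

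Per exon length, the members differ in which organ holds most of their transcript, and Cirbp and Rbm3 do not share a top organ. Mean RPKM of Cirbp was OB 44.7, psWAT 32.5, CBL 28.3, BRN 26.8, BST 21.5, pgWAT 17.5, STM 17.4, LIV 16.6 and iBAT 11.8, a span of 3.81-fold. Rbm3 ran psWAT 26.1, LIV 12, CBL 11, pgWAT 10.6, STM 8.81, OB 7.97, BRN 6.7, iBAT 6.46 and BST 4.61, highest in psWAT. Those libraries also hold leukocyte transcripts, and whether the levels in psWAT follow this content was not tested. The inducible HSP70 genes were highest in stomach, Hspa1a with STM 12.4, pgWAT 2.96, BRN 2.4, OB 2.29, BST 2.22, iBAT 2.12, LIV 1.85, CBL 1.44 and psWAT 0.935, and Hspa1b with STM 22.4, LIV 17.5, pgWAT 6.36, iBAT 3.18, BRN 2.5, BST 1.77, psWAT 1.73, OB 1.28 and CBL 1.22. Hspa8, the constitutive cytosolic HSP70, ran LIV 99.9, STM 54.1, BRN 38.2, psWAT 34.7, iBAT 34.5, BST 34, OB 29, pgWAT 25.9 and CBL 24.1. Hsp90aa1, the inducible cytosolic HSP90, and Hsph1, an HSP110 exchange factor, were highest in brain, Hsp90aa1 in all 4 regions and Hsph1 in 3 of 4, with LIV above CBL: Hsp90aa1 was at BRN 107, BST 103.9, OB 84.4, CBL 62, LIV 46.9, STM 32.4, pgWAT 27.4, psWAT 26 and iBAT 23.2, and Hsph1 at BST 37, BRN 33.2, OB 22.8, LIV 16.4, CBL 14.3, iBAT 14.2, STM 12, psWAT 9.03 and pgWAT 5.92. Dnajb1 was the most even member at BRN 21.7, STM 20.7, LIV 20.5, BST 20.3, iBAT 17.8, OB 16, pgWAT 15.4, psWAT 15.3 and CBL 14.1. Hspb1, the small heat shock protein HSP27, spanned the widest range, STM 129, iBAT 39, LIV 25, pgWAT 24.2, psWAT 9.82, BST 4.62, OB 2.42, BRN 2.27 and CBL 2.2. Hspd1, the mitochondrial chaperonin HSP60, ran iBAT 186, LIV 155.4, pgWAT 66.7, STM 52.3, psWAT 48.9, BST 39.2, BRN 32.9, OB 29.9 and CBL 29, with the most in the mitochondria-rich brown fat. In these orders neighbouring organs overlap in their libraries throughout, except that the lowest LIV library of Hspd1 (133.2 RPKM) lies over the highest pgWAT library (95.5).

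**Figure D1:**
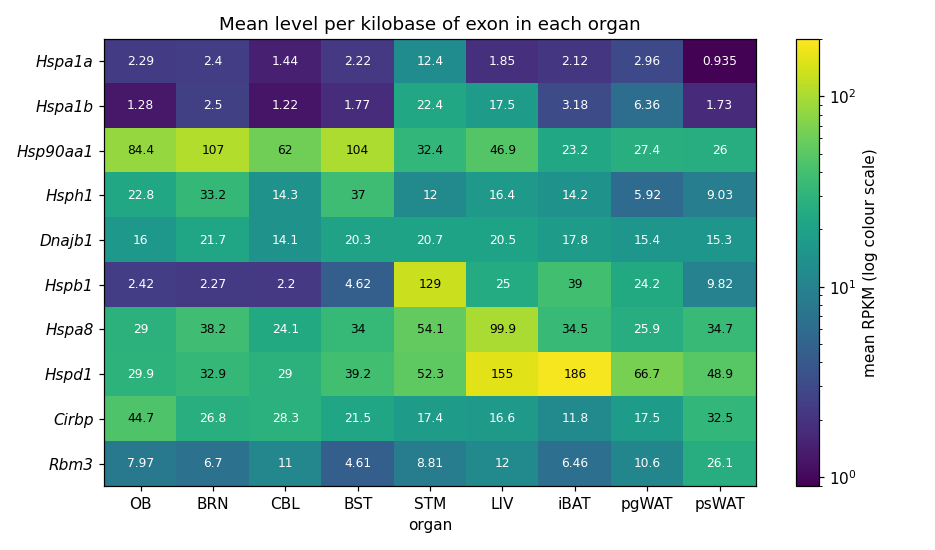
Mean RPKM of each member (vertical) in each organ (horizontal), on a logarithmic colour scale, over 16 to 18 libraries per organ. Hspb1 runs from 2.2 in CBL to 128.7 in STM, and Dnajb1 from 14.1 in CBL to 21.7 in BRN.

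After 18 and 22 h without food, Cirbp stood higher and several heat shock genes lower than in mice fasted 8 and 12 h. Against the fed mice fewer pairs were called lower, while Cirbp was called higher in 4 organs beside 3 against 8 and 12 h. With edgeR quasi-likelihood tests and Benjamini-Hochberg adjustment over all genes of an organ, 12 of 90 pairs (13.3%) passed at 18 and 22 h against 0 h, 6 higher and 6 lower, where 6.44% of all gene and organ pairs passed (2.93% higher, 3.51% lower). Against 8 and 12 h, 17 of 90 passed (18.9%), 5 higher and 12 lower, where 6.59% of all pairs passed (3.27% higher, 3.32% lower). The share of members called lower is above that of all genes in the late against day comparison, but it depends on few libraries. The members were chosen with earlier results of these data known, so their shares beside those of all genes are a description, not a test. Of the 12 lower pairs 6 are in iBAT, where 12.5% of genes were called lower, and without the iBAT library of mouse 17 alone the 12 became 6. Without a mouse in all organs they became 4 (mouse 8), 5 (mouse 11), 4 (mouse 12), 7 (mouse 14), 5 (mouse 15), 2 (mouse 17) and 6 (mouse 18), and with 12 h alone in place of 8 and 12 h they became 0 by edgeR. In these fits 3.88% to 6.55% of all pairs passed without a mouse, and 1.36% with 12 h alone. Without mouse 3, a fed mouse in neither group, the 12 lower pairs became 19, where 7.77% of all pairs passed. Between 8 and 12 h and 0 h the only call was Hsp90aa1 in BRN, 1 of 90 (1.11%) beside 1.9% of all pairs (1.04% higher, 0.858% lower) and 8.16% of BRN genes, with 10 pairs at an unadjusted p under 0.05. The calls come from OB, BRN, CBL, STM, LIV and iBAT, and these organs also differ in how many genes pass at all. Against 0 h the share of all genes called late was 1.95% in OB, 11.2% in BRN, 0.344% in CBL, 0.0596% in BST, 15.3% in STM, 10.6% in LIV, 20.9% in iBAT, 0.00609% in pgWAT and 0% in psWAT (867 genes at an unadjusted p under 0.05). Against 8 and 12 h it was 29.3% in OB, 0% in BRN (855 unadjusted), 0.795% in CBL, 0.328% in BST, 3.96% in STM, 2.7% in LIV, 23.3% in iBAT, 0.00609% in pgWAT and 0% in psWAT (918 unadjusted). No member was called by edgeR in BST, pgWAT or psWAT. DESeq2 called 7 pairs higher and 11 lower against 0 h (20%, beside 9.99% of all pairs). Against 8 and 12 h it called 6 higher and 17 lower (25.6%, beside 8.74% of all pairs), with BST Cirbp among the higher (log2 0.54, adjusted p 0.0027, over a range of 3.93e-04 to 0.542 in 9 alternatives).

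**Figure D2:**
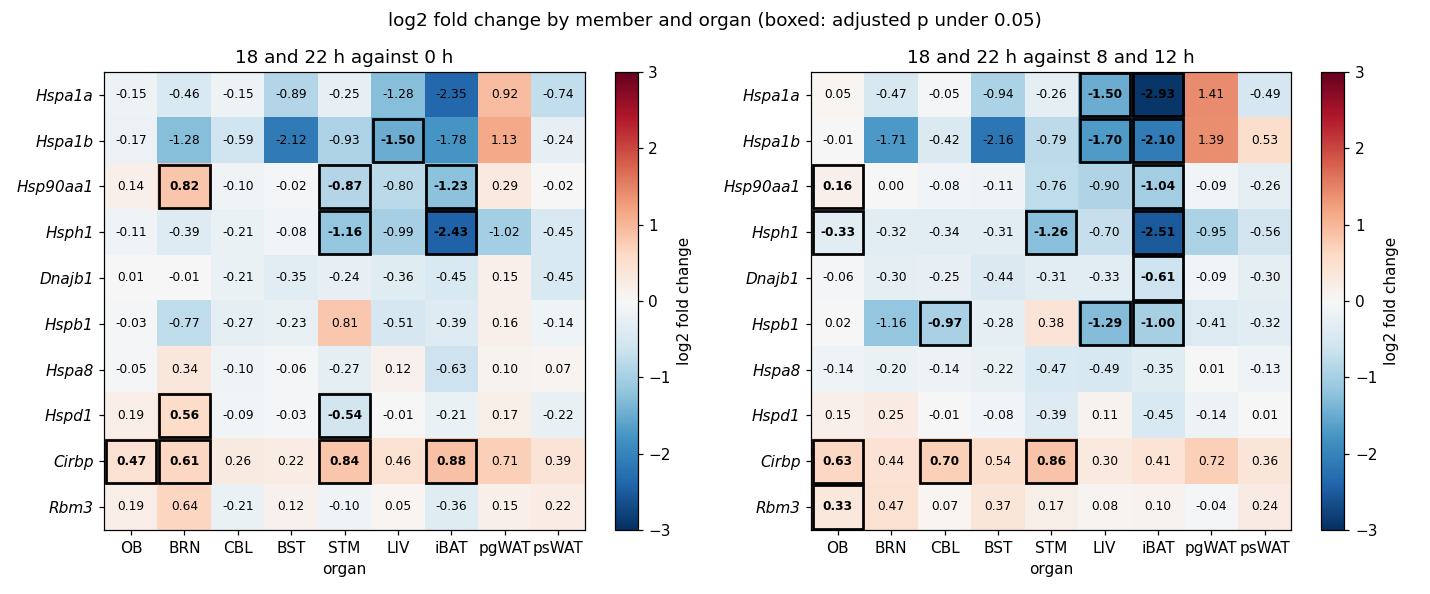
Log2 fold change of each member (vertical) in each organ (horizontal) for 18 and 22 h against 0 h and against 8 and 12 h, from edgeR on 5 or 6 against 3 and 5 or 6 against 5 or 6 libraries, with boxes at an adjusted p under 0.05. Cirbp is above 0 and Hsph1 below 0 in all 9 organs of both maps, under each of 3 library scalings.

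Because each mouse gave all its organs, the members can also be read per mouse, as the mean over organs of the log2 distance from the organ's mean. Mouse 3, a fed mouse, stands apart on this scale: Hsph1 at 0.90, Hspa1b at 1.10, Hspa1a at 0.73, Dnajb1 at 0.39, Hspa8 at 0.36 and Hsp90aa1 at 0.35 are each the highest of 18 mice, and Cirbp at -0.55 the lowest. Its Hsph1 was above and its Cirbp below the organ mean in 9 of 9 organs. The other 2 fed mice had Hsph1 at -0.26 and -0.18 and Cirbp at 0.03 and 0.002. Every comparison with 0 h rests in part on mouse 3, while it is in neither group of the comparison of 18 and 22 h with 8 and 12 h and enters that fit through the variance. Without mouse 3 in any organ, the pairs called late against 0 h went from 6 to 1 higher and from 6 to 0 lower, and those of 8 and 12 h against 0 h from 1 to 5 higher and from 0 to 2 lower. Of all pairs 3.81% passed late against 0 h without mouse 3 (6.44% with it), and 1.41% (1.9%) for 8 and 12 h. The pairs called late against 8 and 12 h went from 5 to 6 higher and from 12 to 19 lower without mouse 3. Of all pairs 7.77% passed there (6.59% with it). Between 8 and 12 h and 0 h no member passed per mouse by limma, where 0.0428% of genes passed, all of them lower (0% higher). Hspb1 alone had an unadjusted p under 0.05 there (log2 0.46, p 0.017, 4 of 6 mice above all 3).

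**Figure D3:**
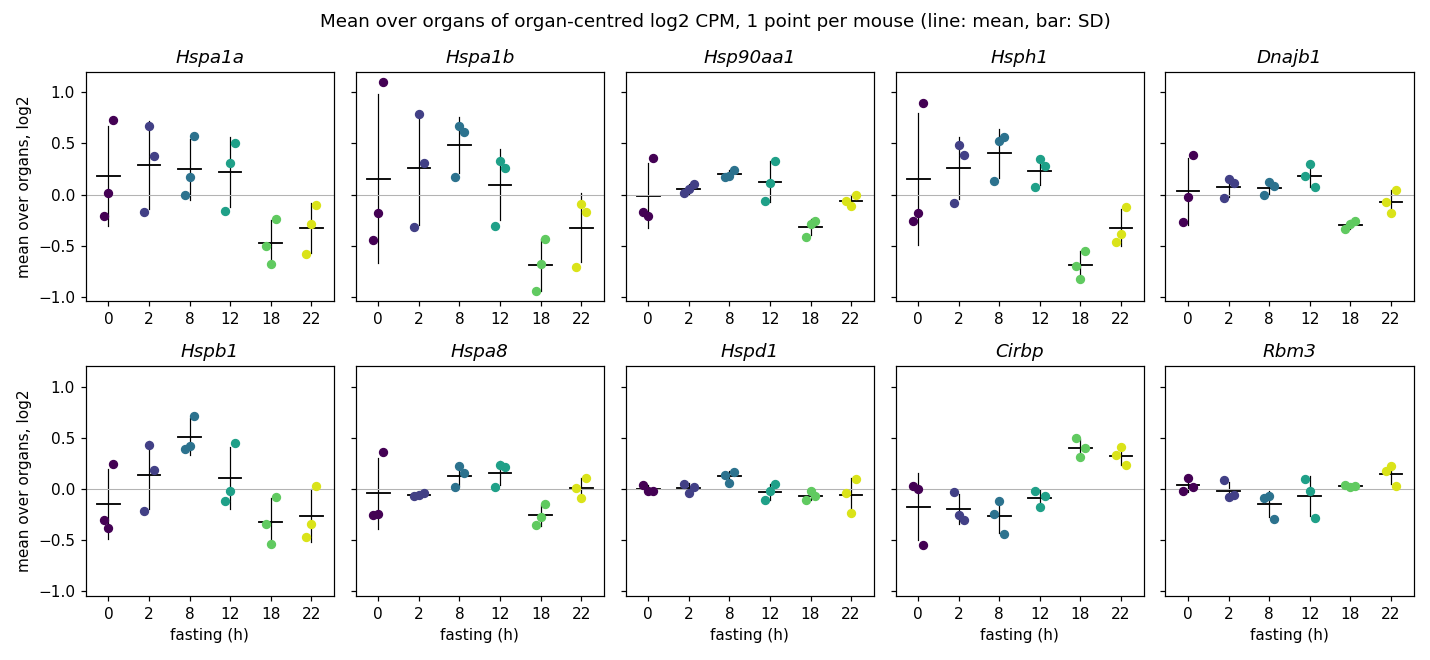
Log2 level of each member per mouse, averaged over its organs after centring each organ (vertical), against hours of fasting (horizontal), with 1 point per mouse, lines at the mean and bars of SD. Hsph1 in mouse 3 (0 h) is at 0.90 while the 6 mice at 18 and 22 h lie between -0.82 and -0.12.

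Cirbp, which binds and stabilizes stress-related messenger RNAs in the cold, rose late in the fast. Its per-mouse values were -0.24, -0.12 and -0.43 at 8 h and -0.02, -0.17 and -0.07 at 12 h, then 0.50, 0.31 and 0.40 at 18 h and 0.34, 0.41 and 0.23 at 22 h. At 0 h they were 0.03, 0.002 and -0.55, and at 2 h -0.03, -0.25 and -0.31. All 6 late mice lay above all 6 mice of 8 and 12 h (log2 0.54, SE 0.089, adjusted p 0.00729, limma), rank 20 of 11679 genes by p, where 5.87% of genes passed (1.67% higher). The same test against 0 h gave log2 0.54, SE 0.109, adjusted p 0.00502, with 6 of 6 late mice above all 3 fed mice, where 20.7% of genes passed (6.75% higher). The late against day call was kept in each of 18 fits that leave out a mouse and in 13 of 14 alternatives (log2 0.50 to 0.58, adjusted p up to 0.286), the exception being the fit with all libraries. The call against 0 h was lost without mouse 3 (0.35, 0.0633). It passed in 13 of 14 alternatives (log2 0.36 to 0.58, adjusted p up to 0.323), again with the fit of all libraries as the exception. By organ, the fold change was above 0 in 9 of 9 organs against 8 and 12 h (log2 0.30 to 0.86) and in 9 of 9 against 0 h (0.22 to 0.88), also with library totals or upper quartile factors in place of TMM. Whether the organs differ in this rise was tested jointly, and Cirbp did not pass against 0 h (adjusted p 0.266) or against 8 and 12 h (0.328).

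In the olfactory bulb Cirbp rose against 8 and 12 h. OB libraries held 146.7, 129 and 107 CPM at 0 h, 144.7, 106 and 123.8 at 2 h, 126.4, 108 and 102.6 at 8 h, 134.4, 110.99 and 102.4 at 12 h, 209.9, 181 and 166.5 at 18 h and 175, 172 and 158 at 22 h. The late libraries were above all 6 of 8 and 12 h in 6 of 6 (log2 0.63, SE 0.0909, adjusted p 2.91e-04), where 29.3% of OB genes passed. That call was made in 10 of 10 alternatives (log2 0.61 to 0.70, adjusted p 2.75e-21 to 0.00671) and in 12 of 12 fits without a library. The OB library of mouse 13 is the least like its organ (r 0.976, the others at 0.9915 or more), and has the most red cell transcript (195 CPM summed), Cirbp and Rbm3 of all OB libraries. Without it Cirbp and Rbm3 were still called against 8 and 12 h. The 8 h libraries of mice 7 and 8 shared a lane number with 0 and 2 h, and mouse 9 and all 12, 18 and 22 h libraries shared another. Within that other lane number, 12 h alone against 18 and 22 h gave log2 0.61 (adjusted p 0.00671). Against 0 h, Cirbp in OB gave log2 0.47, SE 0.113, adjusted p 0.0417, 6 of 6 above all 3, and the 0 h and late libraries share no lane. Only the 8 h libraries lie in both lanes, and with lane as covariate Cirbp had log2 0.66 (adjusted p 0.536, over a range of 4.68e-07 to 0.536 in 9 alternatives), in a fit where no OB gene passed. It was lost without the OB library of mouse 1 (0.57, 0.107), 2 (0.48, 0.0906), 3 (0.36, 0.0676), 13 (0.41, 0.0849), 16 (0.45, 0.0855) and 18 (0.49, 0.0775).

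In the cerebellum, where all libraries carry the same lane number, Cirbp was 74.2, 72.1 and 68.2 CPM at 8 h, 80.1, 65.4 and 65.1 at 12 h, 140.9, 127 and 107 at 18 h and 111.7, 114.01 and 94.1 at 22 h. The rise against 8 and 12 h passed (log2 0.70, SE 0.131, adjusted p 0.032), with 6 of 6 late libraries above all 6, where 0.795% of CBL genes passed. Leaving out the CBL library of mouse 8 (0.70, 0.0674), 9 (0.69, 0.108), 11 (0.68, 0.0989), 12 (0.68, 0.093), 14 (0.70, 0.0591), 17 (0.68, 0.0822) and 18 (0.75, 0.0549) lost the call while the fold change stayed between 0.66 and 0.75. The 0 h libraries of CBL, at 115.5, 106 and 66.6 CPM, overlap the late ones. These 0 h values rest on 2320, 2340 and 1425 reads, beside at most 1203 in any other CBL library. In stomach Cirbp was 44.6, 31.7 and 17.3 CPM at 0 h, 27.9, 35.5 and 21.3 at 8 h, 35.8 and 31.5 at 12 h, 59.4, 54.3 and 69.9 at 18 h and 65.1, 41.5 and 46.9 at 22 h. Both stomach contrasts passed, against 8 and 12 h with 6 of 6 above all 5 (log2 0.86, SE 0.207, adjusted p 0.035) and against 0 h with 5 of 6 above all 3 (log2 0.84, SE 0.244, adjusted p 0.0299). The former was lost without the STM library of mouse 7 (0.86, 0.0834), 9 (0.78, 0.0607), 10 (0.91, 0.124), 11 (0.82, 0.0906), 13 (0.87, 0.0748), 15 (0.81, 0.0836), 16 (0.76, 0.054) and 18 (0.89, 0.0572). The latter was lost without mouse 3 (0.56, 0.147), 13 (0.85, 0.0503) and 15 (0.79, 0.0625). STM has the lane split of OB, and with lane as covariate Cirbp had log2 1.06 against 8 and 12 h (adjusted p 0.179, over a range of 0.00465 to 0.469 in 10 alternatives) and 1.41 against 0 h (0.724, range 0.00353 to 0.724 in 9), where no STM gene passed. The stomach libraries also differ in tissue content: summed stomach markers were 72190, 45600 and 119000 CPM at 0 h and 13650 to 61400 at 18 and 22 h, with 2 of 6 markers lower, and exocrine pancreas markers were 136.3 to 516 CPM at 0 h and 11.0 to 67.3 late, with 3 of 3 tested lower. Skeletal muscle markers were 307 to 2148 CPM at 0 h and 2427 to 4580 late, with 0 of 6 called by edgeR and 0 of 6 at an unadjusted p under 0.05. Neuron markers were 9.15 to 19.3 CPM at 0 h and 26.03 to 55.3 late, with Snap25 (edgeR log2 1.29, adjusted p 0.0171) and Syt1 (1.72, 0.00607) higher. Whether Cirbp follows this content was not tested. In bulk tissue, fewer cells of a type and less RNA per cell cannot be told apart.

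Brown fat and liver show the same direction for Cirbp. In iBAT it was 16.7, 20.4 and 9.55 CPM at 0 h, 17.8, 21.6 and 18.4 at 8 h, 18.9, 19.7 and 34.5 at 12 h, 26.6, 25.9 and 24.1 at 18 h and 32.8 and 32.3 at 22 h. Against 0 h Cirbp rose in iBAT with 5 of 5 above all 3 (log2 0.88, SE 0.24, adjusted p 0.0179), where 20.9% of iBAT genes passed. It did so in 9 of 9 alternatives (log2 0.78 to 1.05, adjusted p 0.00334 to 0.0436), and without the library of mouse 3 (0.63, 0.0678) it was not called. In LIV the 18 h libraries stood out, at 46.3, 37 and 37.4 CPM against 24.3, 21.8 and 25.5 at 0 h, 27.7, 27.6 and 24.6 at 8 h, 24.7, 26.5 and 29.5 at 12 h and 23.4, 22.7 and 34.6 at 22 h. Cirbp in LIV rose at 18 h against 0 h with 3 of 3 above all 3 (log2 0.76, SE 0.173, adjusted p 0.00987), and the mean of 18 and 22 h did not pass (log2 0.46, 0.0551). It was called in 5 of 9 alternatives (adjusted p 0.00111 to 0.335), and of the fits without a library only without mouse 16 (0.51, 0.0454). In BRN Cirbp was 70.8, 73.2 and 53.6 CPM at 0 h, 82.1 and 106 at 18 h and 100.4, 130.3 and 90 at 22 h, with 5 of 5 above all 3 (log2 0.61, SE 0.17, adjusted p 0.0305). There all 0 h libraries are of 1 library series and all 18 and 22 h libraries of another, while 2 h and 12 h have both. With series as covariate Cirbp in BRN had log2 0.66 (adjusted p 0.454, over a range of 0.00844 to 0.821 in 11 alternatives), in a fit where no BRN gene passed, and without the covariate the call was lost without mouse 1 (0.68, 0.111), 2 (0.70, 0.0649), 3 (0.49, 0.14), 16 (0.63, 0.0556) and 17 (0.53, 0.0712). In BST Cirbp was 46.5, 51.8 and 41.6 CPM at 8 h, 65.7, 56.4 and 49.8 at 12 h, 69.6, 78.4 and 77.5 at 18 h and 73.8, 80.1 and 71.1 at 22 h, 6 of 6 late libraries above all 6, and the test did not pass (log2 0.54, adjusted p 0.0627). It was called in 4 of 9 alternatives (adjusted p 3.93e-04 to 0.542), and of the fits without a library only without mouse 10 (0.59, 0.0419). The white fats had log2 0.72 (pgWAT, 0.187) and 0.36 (psWAT, 0.803) against 8 and 12 h.

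**Figure D4:**
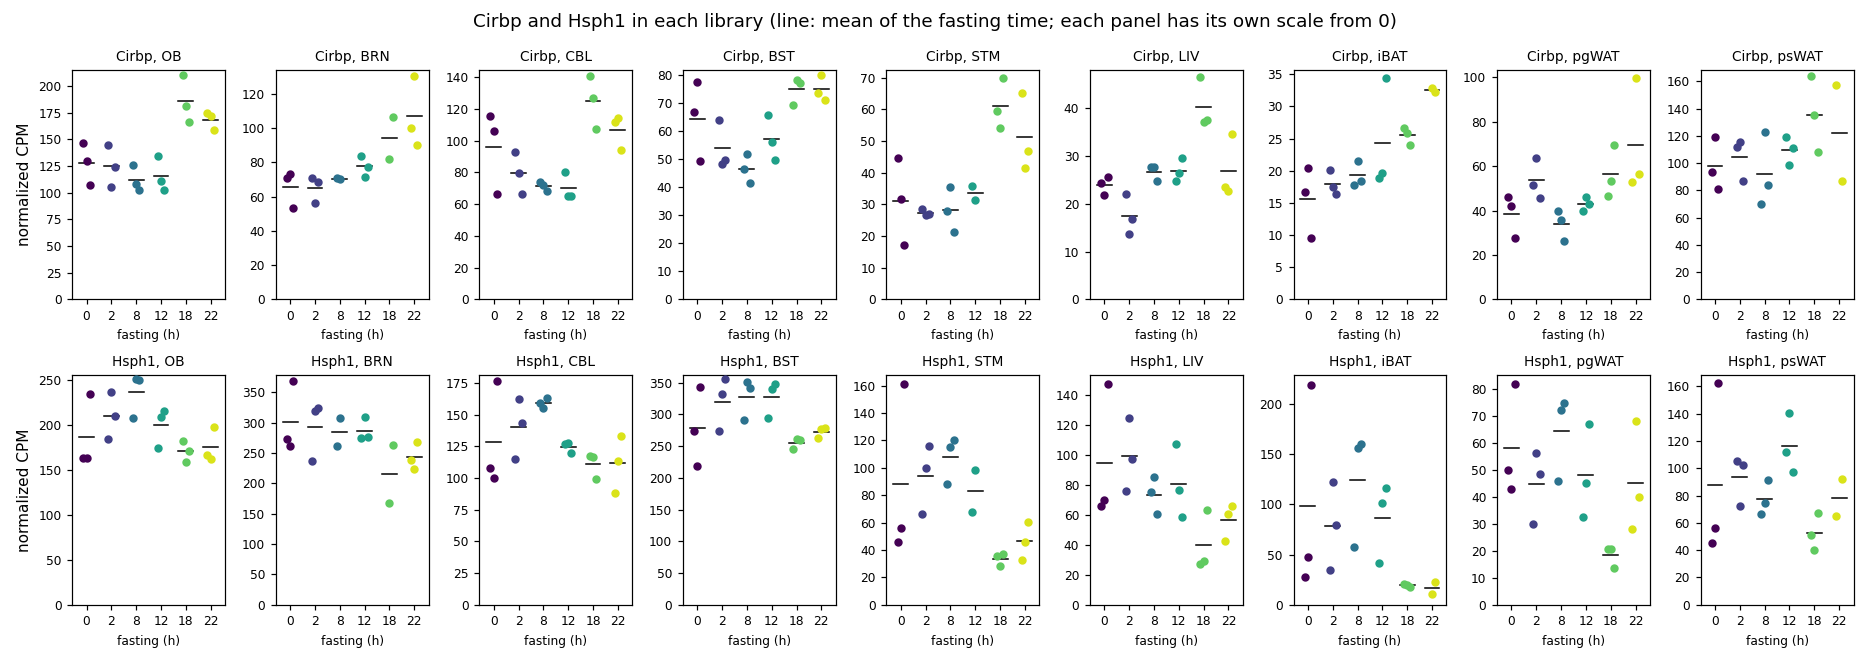
CPM of Cirbp and Hsph1 in each library (vertical) against hours of fasting (horizontal), by organ, with lines at the mean of 2 or 3 libraries. Cirbp in OB goes from 102.4 to 134.4 CPM at 12 h to 166.5 to 209.9 at 18 h, and Hsph1 in iBAT from 41.6 to 116.6 to 17.9 to 20.4.

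Rbm3, the second cold-inducible member, moved less than Cirbp. In OB it was 44.2, 43.8 and 35.1 CPM at 8 h, 39.9, 43.5 and 34.4 at 12 h, 60.7, 49.7 and 49.3 at 18 h and 50.7, 48.5 and 43.7 at 22 h, beside 46.8, 42.3 and 42.7 at 0 h. Rbm3 rose there against 8 and 12 h, with 5 of 6 late libraries above all 6 (log2 0.33, SE 0.0759, adjusted p 0.00423). The call was made in 10 of 10 alternatives (log2 0.29 to 0.44, adjusted p 2.34e-04 to 0.0266) and in 12 of 12 fits without a library. No other organ passed for Rbm3: its fold change against 8 and 12 h was above 0 in 8 of 9 organs (log2 -0.04 to 0.47), with edgeR at an unadjusted p under 0.05 in 2 of 9. Per mouse it was 0.04, 0.02 and 0.03 at 18 h and 0.17, 0.22 and 0.03 at 22 h against -0.09, -0.07 and -0.29 at 8 h and 0.10, -0.02 and -0.28 at 12 h, and did not pass (log2 0.19, SE 0.062, adjusted p 0.0694). Without mouse 10 (0.24, 0.0393) or 18 (0.22, 0.0435) it did, as in 2 of 14 alternatives, 1 of them library totals (0.22, adjusted p 0.0494, up to 0.729 in the 14).

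Hsph1, the HSP110 partner of HSP70, mirrored Cirbp among the heat shock genes. Its per-mouse values were 0.13, 0.52 and 0.56 at 8 h and 0.07, 0.35 and 0.28 at 12 h, then -0.69, -0.82 and -0.55 at 18 h and -0.46, -0.38 and -0.12 at 22 h, with -0.26, -0.18 and 0.90 at 0 h. All 6 late mice lay below all 6 of 8 and 12 h (log2 -0.82, SE 0.162, adjusted p 0.012, limma), rank 92 of 11679 genes, where 4.2% of genes passed lower. The call held in 18 of 18 fits without a mouse and in 13 of 14 alternatives (log2 -0.89 to -0.63, adjusted p up to 0.0637). At 18 h Hsph1 was below the organ mean in 8 of 8, 9 of 9 and 9 of 9 organs of the 3 mice. Against 0 h it passed with 5 of 6 below all 3 (log2 -0.66, SE 0.198, adjusted p 0.0286), where 14% of genes passed lower, and was lost without mouse 3 (-0.29, 0.397), 13 (-0.66, 0.0652), 14 (-0.62, 0.0531), 16 (-0.62, 0.0522) and 17 (-0.64, 0.0512). This call was made in 10 of 14 alternatives (log2 -0.73 to -0.52, adjusted p up to 0.0592), and lost with BRN left out (-0.67, 0.051), iBAT left out (-0.52, 0.0592), pgWAT left out (-0.61, 0.0576) and all libraries (-0.73, 0.0526). By organ the fold change was below 0 in 9 of 9 organs in both comparisons under all 3 scalings, from log2 -2.51 to -0.31 against 8 and 12 h and from -2.43 to -0.08 against 0 h.

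The fall of Hsph1 was largest in brown fat. There Hsph1 was 27.7, 47.9 and 219 CPM at 0 h, 34.5, 122.6 and 79.2 at 2 h, 57.6, 156.6 and 159.8 at 8 h, 41.6, 101.04 and 116.6 at 12 h, 20.4, 19.7 and 17.9 at 18 h and 11.2 and 22.2 at 22 h. Against 8 and 12 h it fell with 5 of 5 below all 6 (log2 -2.51, SE 0.599, adjusted p 0.0156), where 23.3% of iBAT genes passed, in 8 of 10 alternatives (log2 -2.78 to -2.25, adjusted p 1.87e-04 to 0.234). Against 0 h it fell with 5 of 5 below all 3 (log2 -2.43, SE 0.656, adjusted p 0.0249). The former was lost without the iBAT library of mouse 17 (-2.32, 0.092), and the latter without mouse 2 (-2.77, 0.0503), 3 (-1.05, 0.146) and 17 (-2.25, 0.0947). Against 8 and 12 h, 3 of 5 brown adipocyte markers were called higher in iBAT and 1 of 2 endothelial markers lower, and summed skeletal muscle markers ran from 47.5 to 13860 CPM over the iBAT libraries. Whether Hsph1 follows the cell content was not tested. The iBAT library of mouse 17 is also the only one of its library series, and with series as covariate, which takes up that library alone, no iBAT gene passed against 8 and 12 h. In stomach Hsph1 was 46, 56.2 and 161.2 CPM at 0 h, 88.2, 115.3 and 120.2 at 8 h, 67.7 and 98.1 at 12 h, 35.4, 28 and 36.9 at 18 h and 32.6, 45.8 and 60.5 at 22 h. Hsph1 in STM fell against 8 and 12 h with 6 of 6 below all 5 (log2 -1.26, SE 0.285, adjusted p 0.0325) and against 0 h with 5 of 6 below all 3 (log2 -1.16, SE 0.319, adjusted p 0.0258). The former was lost without mouse 7 (-1.33, 0.0685), 10 (-1.38, 0.0979), 11 (-1.12, 0.0795), 13 (-1.29, 0.0729), 15 (-1.30, 0.0762) and 18 (-1.38, 0.0505), and the latter only without mouse 3 (-0.37, 0.4). With lane as covariate Hsph1 in STM had log2 -1.34 against 8 and 12 h (adjusted p 0.186, over a range of 0.00151 to 0.395 in 10 alternatives) and -1.40 against 0 h (0.724, range 0.00664 to 0.724 in 9), and neither passed. In OB Hsph1 was 208, 252 and 250.3 CPM at 8 h, 175, 209 and 216 at 12 h, 182, 158.8 and 172 at 18 h and 166.8, 163 and 198 at 22 h, a smaller fall with 4 of 6 below all 6 (log2 -0.33, SE 0.0932, adjusted p 0.0145) that was called in 12 of 12 fits without a library. In LIV the 18 h libraries held 27.1, 29.2 and 63.4 CPM and those of 0 h 66.3, 69.7 and 147.6, and the late contrast did not pass (log2 -0.99, adjusted p 0.07). It was called in 3 of 9 alternatives (adjusted p 8.05e-12 to 0.732), and of the fits without a library only without mouse 15 (-1.25, 0.0158).

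Hspa1a and Hspa1b encode the same stress-inducible HSP70 from neighbouring genes, and they were lower late in the fast in liver and brown fat. Hspa1b in LIV was 20.3, 20.2 and 65.1 CPM at 0 h, 43.2, 50.5 and 23 at 8 h, 34.3, 55.5 and 35.6 at 12 h, 7.33, 14.3 and 6.29 at 18 h and 17.4, 11.9 and 21.1 at 22 h. It fell against 8 and 12 h with 6 of 6 below all 6 (log2 -1.70, SE 0.377, adjusted p 0.0383) and against 0 h with 5 of 6 below all 3 (log2 -1.500, SE 0.443, adjusted p 0.0488), where 2.7% and 10.6% of LIV genes passed. The former was lost without the LIV library of mouse 7 (-1.66, 0.0817), 8 (-1.59, 0.1), 11 (-1.58, 0.0877), 12 (-1.76, 0.0716), 14 (-1.91, 0.0679), 15 (-1.59, 0.0792), 16 (-1.72, 0.0643), 17 (-1.61, 0.0932) and 18 (-1.802, 0.066). The latter was lost without mouse 1 (-1.78, 0.0527), 2 (-1.78, 0.057), 3 (-0.71, 0.327), 13 (-1.43, 0.0822), 15 (-1.39, 0.0856), 16 (-1.51, 0.0733), 17 (-1.40, 0.0948) and 18 (-1.60, 0.0616). Hspa1a in LIV was lower in level, 2.09, 3.49 and 3.8 CPM at 8 h, 5.26, 6.31 and 2.98 at 12 h, 1.44, 0.835 and 0.191 at 18 h and 1.48, 2.79 and 2.83 at 22 h. It fell with 4 of 6 below all 6 (log2 -1.497, SE 0.364, adjusted p 0.0359), a call lost without mouse 7 (-1.60, 0.0637), 8 (-1.46, 0.098), 11 (-1.38, 0.0882), 12 (-1.62, 0.0551), 14 (-1.51, 0.0931), 15 (-1.24, 0.0734), 16 (-1.37, 0.0658), 17 (-1.56, 0.0802) and 18 (-1.57, 0.0634). LIV also has the lane split of OB, with mouse 9 and all 12, 18 and 22 h libraries in a lane without 0 h. With lane as covariate Hspa1b in LIV had log2 -0.47 against 0 h (adjusted p 0.848, over a range of 1.75e-22 to 0.848 in 9 alternatives) and -1.33 against 8 and 12 h (0.288, range 1.82e-40 to 0.288 in 10), and Hspa1a had -1.63 (0.198, range 3.29e-06 to 0.198 in 10). None of these LIV calls was made once lane was fitted.

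In brown fat Hspa1a was 0.653, 4.44 and 10.7 CPM at 0 h, 3.91, 11.2 and 11.8 at 8 h, 1.92, 4.35 and 13.8 at 12 h, 1.04, 0.634 and 1.12 at 18 h and 0 and 1.67 at 22 h, where the late values are near the floor of 3 counts. It fell against 8 and 12 h with 5 of 5 below all 6 (log2 -2.93, SE 0.755, adjusted p 0.0174), and without mouse 17 (-2.61, 0.094) the call was lost. Without mouse 18, which leaves 1 late 22 h library without a count, the fitted change was log2 -6.27. Hspa1b in iBAT was 5.06, 16.9 and 18.9 CPM at 8 h, 1.73, 6.26 and 10.8 at 12 h, 1.64, 1.59 and 1.49 at 18 h and 4.46 and 1.89 at 22 h. It fell with 3 of 5 below all 6 (log2 -2.103, SE 0.665, adjusted p 0.0365), a call lost without mouse 8 (-2.01, 0.0713), 9 (-1.94, 0.0698), 11 (-2.11, 0.0752), 12 (-1.77, 0.0565), 13 (-2.11, 0.0626), 14 (-2.102, 0.0691), 15 (-2.08, 0.0693), 17 (-2.41, 0.106) and 18 (-1.797, 0.117). In pgWAT neither gene passed, and the fitted changes against 8 and 12 h were above 0 (1.41 for Hspa1a and 1.39 for Hspa1b). There Hspa1a was 3.11, 6.2 and 18.7 CPM at 18 h and 6.59, 42.2 and 9.51 at 22 h, and Hspa1b 10, 11.3 and 28.9 and 12.8, 108.6 and 15.8, with the highest values of each time from mice 15 and 17. Per mouse, Hspa1a passed against 8 and 12 h with 5 of 6 below all 6 (log2 -0.63, SE 0.181, adjusted p 0.0484), and Hspa1b, with 4 of 6, did not (log2 -0.80, SE 0.234, adjusted p 0.0539). The Hspa1a call was lost without mouse 1 (-0.63, 0.0676), 2 (-0.63, 0.0582), 6 (-0.63, 0.0504), 8 (-0.65, 0.0667), 9 (-0.55, 0.117), 11 (-0.61, 0.0653), 12 (-0.56, 0.0898), 13 (-0.62, 0.1), 14 (-0.58, 0.087), 15 (-0.69, 0.061), 16 (-0.57, 0.107) and 17 (-0.64, 0.0828). This call was made in 8 of 14 alternatives (log2 -0.85 to -0.33, adjusted p up to 0.279), and lost with library totals (-0.59, 0.0672), OB left out (-0.72, 0.0637), BST left out (-0.59, 0.0653), LIV left out (-0.52, 0.121), iBAT left out (-0.33, 0.279) and all libraries (-0.66, 0.162). Hspa1b was called without mouse 1 (-0.80, 0.0475), 4 (-0.80, 0.042), 7 (-0.87, 0.0488) and 10 (-0.90, 0.0492), and in 5 of 14 alternatives (log2 -1.03 to -0.64, adjusted p up to 0.145), among them CBL left out (-0.85, 0.0454), pgWAT left out (-1.03, 0.0313), psWAT left out (-0.93, 0.0278) and the 4 libraries picked by hand left out (-0.87, 0.0336).

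Hsp90aa1, the HSP90 that folds kinases and steroid receptors and is heat-inducible, went in opposite directions in forebrain and in stomach or brown fat. In BRN it was 292, 315 and 306 CPM at 0 h, 449.7, 359 and 516 at 2 h, 553 and 523 at 8 h, 529, 691 and 399 at 12 h, 514 and 447 at 18 h and 649, 712 and 458 at 22 h. It rose against 0 h at 18 and 22 h with 5 of 5 above all 3 (log2 0.82, SE 0.179, adjusted p 0.0126), where 11.2% of BRN genes passed, and at 8 and 12 h with 5 of 5 (log2 0.82, SE 0.179, adjusted p 0.0149). The late call was lost without mouse 1 (0.81, 0.0951) and 3 (0.84, 0.0554), and the 8 and 12 h call without mouse 1 (0.81, 0.116), 2 (0.87, 0.059), 3 (0.84, 0.0606) and 7 (0.80, 0.0567). Without the BRN libraries of mice 6 and 14 the late change was log2 0.77 (adjusted p 0.0582, over a range of 7.45e-05 to 0.524 in 11 alternatives). With library series as covariate it was log2 0.72 late (adjusted p 0.446) and 0.73 at 8 and 12 h (0.332, over a range of 6.71e-05 to 0.467 in 12 alternatives), and neither passed. The BRN libraries also differ in content: summed neuron markers were 2847 to 3361 CPM at 0 h and 1353 to 3073 late, glia markers 4581 to 6056 and 5102 to 16950, and red cell markers 42.8 to 93.6 and 122.3 to 364.8, with all 5 late libraries above all 3. Of these, 2 of 4 glia genes were called higher by edgeR and no neuron or red cell gene was, and whether the BRN calls of Hsp90aa1, Cirbp and Hspd1 follow this content was not tested. In STM Hsp90aa1 was 89.2, 84.4 and 237 CPM at 0 h, 60.1, 99.3 and 70 at 18 h and 68, 67.5 and 84.3 at 22 h, and fell with 5 of 6 below all 3 (log2 -0.87, SE 0.267, adjusted p 0.0379). This was lost without mouse 3 (-0.21, 0.578), 13 (-0.80, 0.0816), 15 (-0.84, 0.0774), 16 (-0.83, 0.0569) and 17 (-0.83, 0.0604). With lane as covariate Hsp90aa1 in STM had log2 -1.21 (adjusted p 0.724, over a range of 0.0203 to 0.724 in 9 alternatives). In iBAT it was 54.8 and 54.4 CPM at 0 h in mice 1 and 2 (mouse 3 had 2.69 times the organ median), 47.6, 89.1 and 98 at 8 h, 44.8, 60 and 109.4 at 12 h, 33.7, 40.3 and 29.5 at 18 h and 37.9 and 38.4 at 22 h. Hsp90aa1 in iBAT fell against 0 h with 5 of 5 below all 3 (log2 -1.23, SE 0.359, adjusted p 0.0269) and against 8 and 12 h with 5 of 5 below all 6 (log2 -1.04, SE 0.312, adjusted p 0.0277). The former was lost without mouse 3 (-0.59, 0.203), 15 (-1.18, 0.0528) and 17 (-1.23, 0.0842), and the latter without mouse 8 (-0.99, 0.0613), 9 (-0.95, 0.0616), 11 (-1.10, 0.0541), 12 (-0.80, 0.0516), 15 (-0.99, 0.0581), 17 (-1.04, 0.113) and 18 (-1.05, 0.0569). A small rise in OB against 8 and 12 h (log2 0.16, SE 0.0594, adjusted p 0.0437, 1 of 6 above all 6) was lost without mouse 7 (0.13, 0.12), 9 (0.14, 0.121), 10 (0.13, 0.117), 11 (0.17, 0.0553), 12 (0.17, 0.0652), 13 (0.10, 0.206), 16 (0.14, 0.12) and 18 (0.16, 0.0817). Per mouse Hsp90aa1 fell against 8 and 12 h with 4 of 6 below all 6 (log2 -0.35, SE 0.0829, adjusted p 0.0251), a call lost without mouse 9 (-0.34, 0.0711), 12 (-0.30, 0.0597), 13 (-0.33, 0.0567) and 17 (-0.34, 0.0587). This call was made in 12 of 14 alternatives (log2 -0.42 to -0.28, adjusted p up to 0.127), and lost with LIV left out (-0.28, 0.0537) and all libraries (-0.37, 0.127).

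Dnajb1, the J protein that brings substrates to HSP70, was below its 8 and 12 h level in 9 of 9 organs under all 3 scalings (log2 -0.61 to -0.06 with TMM) and was called in iBAT. There it was 41.9, 59.3 and 42.7 CPM at 8 h, 45.9, 48.6 and 59.7 at 12 h, 25, 31.7 and 27.7 at 18 h and 32.8 and 42 at 22 h, with 4 of 5 below all 6 (log2 -0.61, SE 0.192, adjusted p 0.0309). The iBAT call was lost without mouse 8 (-0.52, 0.0855), 12 (-0.53, 0.0531), 13 (-0.56, 0.0639), 15 (-0.61, 0.0596) and 17 (-0.53, 0.134). In LIV Dnajb1 fell at 18 h against 0 h, from 35.1, 38.7 and 57.6 to 25.3, 27.84 and 32.6 CPM, 3 of 3 below all 3 (log2 -0.61, SE 0.166, adjusted p 0.0234). Per mouse it passed against 8 and 12 h with 5 of 6 below all 6 (log2 -0.31, SE 0.0823, adjusted p 0.0386), lost without mouse 8 (-0.29, 0.0761), 9 (-0.30, 0.0919), 10 (-0.31, 0.0633), 11 (-0.28, 0.0745), 13 (-0.30, 0.0739), 14 (-0.31, 0.0657), 15 (-0.32, 0.0661), 16 (-0.31, 0.068) and 17 (-0.28, 0.0938). This call was made in 8 of 14 alternatives (log2 -0.39 to -0.26, adjusted p up to 0.215), and lost with library totals (-0.29, 0.0637), OB left out (-0.34, 0.0505), BST left out (-0.28, 0.0569), LIV left out (-0.30, 0.052), iBAT left out (-0.26, 0.0885) and all libraries (-0.39, 0.215). Hspb1, the HSP27 that holds unfolding proteins without using ATP, was 41.4, 27.2 and 24.3 CPM at 8 h, 15, 18.1 and 18 at 12 h, 6.81, 9.61 and 6.2 at 18 h and 10.6, 10.9 and 13.7 at 22 h in LIV, 6 of 6 late libraries below all 6 (log2 -1.29, SE 0.265, adjusted p 0.029). That was lost without mouse 7 (-1.16, 0.066), 8 (-1.34, 0.0694), 11 (-1.27, 0.0634), 12 (-1.28, 0.0621), 14 (-1.39, 0.0605), 15 (-1.23, 0.0629), 16 (-1.26, 0.0508) and 17 (-1.27, 0.0794), and with lane as covariate (-1.12, adjusted p 0.222, over a range of 1.5e-17 to 0.222 in 10 alternatives). Hspb1 also fell in CBL, at low levels of 2.17, 4.43 and 4.34 CPM at 8 h, 4.55, 3.08 and 4.12 at 12 h, 2.69, 2.08 and 1.91 at 18 h and 1.18, 1.59 and 2.13 at 22 h, 5 of 6 below all 6 (log2 -0.97, SE 0.231, adjusted p 0.0421), lost without mouse 8 (-0.89, 0.0976), 9 (-0.90, 0.141), 10 (-0.91, 0.0759), 11 (-1.04, 0.0897), 12 (-0.95, 0.116), 14 (-0.95, 0.0821), 15 (-0.92, 0.0597), 16 (-0.88, 0.0592), 17 (-0.96, 0.1) and 18 (-1.10, 0.0794). In iBAT it fell with 3 of 5 below all 6 (log2 -0.997, SE 0.348, adjusted p 0.0487), lost without mouse 8 (-0.95, 0.095), 9 (-0.88, 0.104), 12 (-0.51, 0.118), 13 (-0.95, 0.0842), 14 (-1.02, 0.0781), 15 (-1.003, 0.08), 17 (-1.14, 0.115) and 18 (-0.87, 0.131). Mouse 12 has the most skeletal muscle transcript of all iBAT libraries (13860 CPM summed), mice 8 and 9 follow with 4716 and 4932, and whether Hspb1 follows muscle content was not tested. Per mouse Hspb1 passed with 4 of 6 below all 6 (log2 -0.60, SE 0.14, adjusted p 0.0246), lost without mouse 9 (-0.55, 0.143), 12 (-0.51, 0.0539), 14 (-0.54, 0.0532), 16 (-0.55, 0.0561) and 17 (-0.58, 0.0584). This call was made in 12 of 14 alternatives (log2 -0.72 to -0.51, adjusted p up to 0.109), and lost with LIV left out (-0.51, 0.057) and all libraries (-0.63, 0.109).

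Hspa8 and Hspd1 are the constitutive members, and Hspd1 was called against 0 h in 2 organs, in opposite directions. Hspa8, which folds new proteins and uncoats clathrin, passed in 0 of 9 organs by edgeR against 8 and 12 h, with 3 of 9 at an unadjusted p under 0.05, and its fold change was below 0 in 8 of 9 organs with TMM and in 9 of 9 with the other scalings (log2 -0.49 to 0.006 with TMM). Per mouse it did not pass (log2 -0.27, SE 0.0874, adjusted p 0.0733), and was called without mouse 3 (-0.27, 0.0376) and in 1 of 14 alternatives (log2 -0.30 to -0.22, adjusted p up to 0.433). Hspd1, which folds imported proteins in the mitochondrial matrix, rose in BRN from 79.1, 83.8 and 74.7 CPM at 0 h to 142.4 and 110.02 at 18 h and 119.5, 112.8 and 92.7 at 22 h, 5 of 5 above all 3 (log2 0.56, SE 0.167, adjusted p 0.0381). In STM Hspd1 fell from 121.6, 117.9 and 169.8 CPM to 96.5, 111.03 and 78.1 at 18 h and 85.2, 99.7 and 92.1 at 22 h, 6 of 6 below all 3 (log2 -0.54, SE 0.163, adjusted p 0.0347). The BRN call was lost without mouse 1 (0.57, 0.143), 2 (0.62, 0.0866), 3 (0.53, 0.128), 14 (0.46, 0.124), 16 (0.52, 0.0865) and 17 (0.55, 0.0746), and the STM call without mouse 1 (-0.60, 0.0578), 3 (-0.34, 0.22), 13 (-0.55, 0.0624), 15 (-0.48, 0.0793), 16 (-0.50, 0.0515) and 18 (-0.54, 0.054). With series as covariate Hspd1 in BRN had log2 0.65 (adjusted p 0.451, over a range of 0.0189 to 0.735 in 11 alternatives), and with lane as covariate Hspd1 in STM had -0.82 (0.724, range 0.00807 to 0.724 in 9). Whether the organs differ for Hspd1 was tested jointly and did not pass (adjusted p 0.059 against 0 h, 0.0744 against 8 and 12 h).

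Each time was also tested against 0 h. With edgeR 0 of 90 pairs passed at 2 h (5 at an unadjusted p under 0.05, 0.0395% of all pairs called) and 0 at 8 h (10 unadjusted, 0.0874%), and no other tool was run on single times. At 12 h Hsp90aa1 in BRN passed alone (log2 0.82, adjusted p 0.0229, 3 of 3 above all 3), 1.11% of member pairs beside 1.88% of all pairs. At 18 h 7 pairs passed (7.78%, beside 4.29% of all pairs): Cirbp in OB (0.54, 0.0169), STM (0.97, 0.0271) and LIV, Hsph1 in STM (-1.39, 0.0279), and Hspa1a (-2.04, 0.0273), Hspa1b (-1.94, 0.0438) and Dnajb1 in LIV, each with 3 of 3 libraries beyond all 3 of 0 h. At 22 h 4 passed (4.44%, beside 5.81%): Hsp90aa1 (0.99, 0.0168, 3 of 3) and Cirbp (0.70, 0.0332, 3 of 3) in BRN, and Hsph1 (-2.52, 0.0435, 2 of 2) and Cirbp (1.06, 0.00806, 2 of 2) in iBAT. For these single-time tests libraries were not left out in turn. A test for any difference among the 6 times passed for 7 pairs (7.78%, beside 7.34%): Cirbp in OB (0.00362), STM (0.0322) and LIV (0.00368), Rbm3 in OB (0.0456), and Hspa1a (0.0151), Hspb1 (0.0201) and Dnajb1 (0.0457) in LIV.

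The organs differed in how 4 members changed against 0 h and 5 against 8 and 12 h, by a joint edgeR test over 9 organs in which 49.4% and 34.4% of all genes passed. Against 0 h the adjusted p was 1.88e-05 for Hsp90aa1, 0.000607 for Hsph1, 0.0152 for Hspa1b and 0.0285 for Hspa1a. Against 8 and 12 h it was 0.000107 for Hspa1b, 0.000111 for Hspa1a, 0.000252 for Hsph1, 0.000927 for Hsp90aa1 and 0.0446 for Hspb1. Hsp90aa1 separates forebrain from stomach and brown fat against 0 h: the log2 change was 0.68 in BRN and -1.24 in iBAT (BRN minus iBAT 1.92, adjusted p 2.37e-04, with 3.69% of genes passing), and BRN minus STM 1.53, adjusted p 2.37e-04 (37.6%). Hsph1 fell more in brown fat than in olfactory bulb or cerebellum (OB minus iBAT 2.29, adjusted p 0.00213 with 4.35% of genes passing against 0 h, and CBL minus iBAT 2.22, adjusted p 1.42e-04 with 21.7% against 8 and 12 h). Against 8 and 12 h the inducible HSP70 genes differed between brown and perigonadal fat (iBAT minus pgWAT -4.32, adjusted p 9.19e-06 for Hspa1a, and iBAT minus pgWAT -3.54, adjusted p 3.01e-04 for Hspa1b, with 22% of genes passing), which rests in part on the pgWAT library of mouse 17. For Cirbp, Rbm3, Dnajb1, Hspa8 and Hspd1 the joint test passed in neither comparison. That fit treats the organs of a mouse as independent, although members vary together within a mouse, Hsph1 with an r of 0.443. Added after the data were seen, an edgeR fit with each mouse as a term called the same members, against 0 h at an adjusted p of 3.41e-05 (Hsph1), 4.43e-05 (Hsp90aa1), 0.0235 (Hspa1a) and 0.0327 (Hspa1b), where 49.6% of genes passed. Against 8 and 12 h it gave 5.87e-07 (Hsph1), 4.5e-06 (Hspa1b), 2.54e-05 (Hspa1a), 0.000331 (Hsp90aa1) and 0.0463 (Hspb1), where 33.4% passed. The limma fit with a common correlation within mice called fewer: Hsp90aa1 and Hsph1 against 0 h, not Hspa1a (0.113) or Hspa1b (0.44), and not Hspb1 (0.249) against 8 and 12 h, where 58.8% and 43.8% of genes passed. That common correlation was estimated at 0.0119, where Hsph1 has an r of 0.443. Without it limma did not call these 3 either (0.13, 0.472 and 0.262). The organ difference is called by both tools for Hsp90aa1 and Hsph1 in both comparisons, and for Hspa1a and Hspa1b against 8 and 12 h. These organ tests include mouse 3 and have no term for library series. By organ in edgeR without mouse 3, Hsp90aa1 against 0 h had log2 -0.21 in STM (adjusted p 0.578) and -0.59 in iBAT (0.203). Hsph1 in iBAT had -1.05 (0.146). In BRN the 0 h and the late libraries are of different series.

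Other chaperone genes from lists outside the members show where the members stand among their relatives. Chaperones of the endoplasmic reticulum were called lower late against 0 h in STM (11 of 11, median log2 -1.22) and LIV (7 of 11, median -1.13), and in STM against 8 and 12 h (9 of 11, median -0.94), where 9.09%, 5.39% and 1.71% of all genes were called lower, for example Hspa5 (BiP) in STM at -1.67, 0.00232 and -1.41, 0.0118 (log2 and adjusted p). The STM libraries differ in tissue content, with the most stomach (119000 CPM summed) and exocrine pancreas marker (516) in the 0 h library of mouse 3. Whether the chaperone lists follow this content in STM was not tested, and no values without mouse 3 are given for them. Heat shock factors and cochaperones had 5 of 15 higher and 0 lower in BRN, such as Bag1 (0.93, 0.00831), and 1 higher and 4 lower in STM, where of all genes 7.08% were called higher in BRN, and 6.21% higher and 9.09% lower in STM. The cochaperone Chordc1 fell against 8 and 12 h in OB (-0.42, 4.52e-04) and iBAT (-1.04, 0.0385), as Hsph1 did, and in BST (-0.35, 0.0128), where Hsph1 did not pass (-0.31, 0.229). Among HSP70 and HSP90 relatives, 1 was higher and 5 lower of 11 in STM against 0 h, and 1 higher and 5 lower in iBAT against 8 and 12 h (10.8% and 12.5% of all genes). J proteins had 3 of 9 lower in STM, and small heat shock proteins 1 of 5 higher in BRN, against 0 h. Of RNA-binding relatives of Cirbp and Rbm3, 1 of 12 was higher and 4 lower in OB against 8 and 12 h, where 15.1% and 14.2% of all genes were, and their difference from Cirbp was not tested. Immediate early genes had 2 higher in STM against 0 h, and in iBAT Jun fell against 8 and 12 h (-1.30, 0.0108). In pgWAT and psWAT no gene of these 7 lists was called by edgeR.

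The members also resemble particular genes across libraries, described here as correlations over the retained libraries, centred by organ, which share 18 mice. Hspa1b was most like Hspa1a (r 0.722), followed by P4ha1 (0.59), Dnajb1 (0.586), Hsp90ab1 (0.584) and Fkbp4 (0.578), although shared reads can raise the value for Hspa1a. Hsp90aa1 was most like Dnaja1 (0.761) and Gm5844 (0.76), which shares sequence with it, then Gm8355 (0.714), Gm6210 (0.706) and Hspa8 (0.678). Hspa8 was most like Gm6210 (0.876) and Gm8355 (0.723), the latter with shared sequence, then Hsp90aa1, Dynll1 (0.658) and Ptges3 (0.592). Hsph1, looked up after its values were seen, was most like the cochaperones Stip1 (0.808) and Chordc1 (0.786). Cirbp was most like 2410002F23Rik (0.647), Pik3ip1 (0.631) and Abtb1 (0.608), and Rbm3 like Hnrnpdl (0.614) and Rpl30 (0.561). Cirbp and Hsph1 ran opposite to each other, with r -0.545 over libraries, -0.314 after centring by organ and time, and -0.926 over the 18 mouse means. Of 11678 genes, Hsph1 is the 12th lowest correlate of Cirbp. Cirbp and Rbm3 had r 0.306 over libraries and 0.576 over mouse means.

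Promoter sequence was available for 7 of the 10 members, as windows of 250 bases before a RefSeq start on GRCm38.p6, and not for Hsp90aa1, Hspa8 and Rbm3. Heat shock factor binds inverted repeats of GAA, and the windows were searched on both strands, overlaps counted, for GAANNTTC, TTCNNGAA, 3-unit forms in which GAA and TTC alternate with 2 free bases between units, and the GC box GGGCGG or CCGCCC. Of 27025 genes with such windows, 7.73% hold GAANNTTC in any of them, 8.11% TTCNNGAA, 0.514% a 3-unit form and 35.4% a GC box. Of the 7 members, 4 hold GAANNTTC, 2 TTCNNGAA, 1 a 3-unit form and 7 a GC box, and a match is a description of sequence only. Cirbp and Dnajb1 hold no heat shock element form in their windows, but both Cirbp windows lie inside the annotated Cirbp gene, and 1 of the 2 Dnajb1 windows has 245 of 250 bases in a Dnajb1 exon. The windows of the inducible Hspa1a and Hspa1b and of Hspb1 hold GAANNTTC and no 3-unit form. Whether a match bears on the change of a gene with fasting was not tested. These windows are printed with GAANNTTC matches in capitals. Those of Hspa1a and Hspb1 lie at chr17:34972157-34972406 on the minus strand and chr5:135887669-135887918 on the plus strand, and that of Hspa1b at chr17:34959239-34959488 on the minus strand. Hspa1a and Hspa1b have GAAGATTC at -104 to -97 and differ at 3 of 250 bases (98.8% identical). Hspb1 has GAACCTTC at -97 to -90 and GAAGTTTC further from its start.
Hspa1a: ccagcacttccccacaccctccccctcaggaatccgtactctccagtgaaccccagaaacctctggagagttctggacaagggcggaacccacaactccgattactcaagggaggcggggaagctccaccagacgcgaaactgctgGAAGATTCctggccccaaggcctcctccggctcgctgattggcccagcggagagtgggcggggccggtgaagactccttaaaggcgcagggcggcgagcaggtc
Hspa1b: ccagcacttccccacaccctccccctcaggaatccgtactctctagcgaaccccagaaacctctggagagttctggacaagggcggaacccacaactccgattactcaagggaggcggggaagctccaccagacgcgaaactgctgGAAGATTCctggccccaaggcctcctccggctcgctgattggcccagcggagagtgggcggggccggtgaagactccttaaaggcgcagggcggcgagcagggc
Hspb1: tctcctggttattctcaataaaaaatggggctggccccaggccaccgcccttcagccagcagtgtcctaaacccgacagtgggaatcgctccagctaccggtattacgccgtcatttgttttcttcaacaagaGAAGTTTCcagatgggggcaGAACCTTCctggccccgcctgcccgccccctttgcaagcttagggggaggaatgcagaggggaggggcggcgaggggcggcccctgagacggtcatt

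Hsph1 and Hspd1 hold other forms, shown as short pieces in the sense of the gene. The Hsph1 piece (GRCm38.p6, chr5:149636351-149636380, minus strand, -44 to -15) has TTCTCGAA in capitals, and the end of that window lies in an Hsph1 exon of the Gencode annotation. The Hspd1 piece (GRCm38.p6, chr1:55088059-55088076, minus strand, -144 to -127 of its other RefSeq start) is made of overlapping 3-unit elements at -144 to -132 and -139 to -127, all in capitals, and its window lies in exon sequence of Hspd1 and in part of Hspe1. It is shown because a 3-unit element is rare among all windows.
Hsph1: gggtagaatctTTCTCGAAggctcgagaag
Hspd1: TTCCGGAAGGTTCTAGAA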

How the data were processed

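Counts per gene are as the authors deposited them: per the labels, stranded mRNA reads were aligned to GRCm38.p5 with TopHat2 2.1.1 and uniquely mapped reads were counted over Gencode exons with HTSeq 0.9.1, with no scaling. The strand setting of the counting is not stated. Of 53686 symbols, 15167 have no count. Libraries whose log10 total lies more than 2 SD below their organ's mean (5) were left out, and totals of the others are 3045845 to 27801717, so that 3 counts, taken as the floor, equal 0.108 to 0.985 CPM. Each organ's fit uses the genes with at least 3 libraries over a CPM that corresponds to 10 counts at the median total. Time was tested genome-wide per organ in R 4.3.3 with edgeR 4.0.16 (TMM, robust quasi-likelihood, 6 time levels), with Benjamini-Hochberg adjustment over all genes, and a call is an adjusted p under 0.05. Contrasts were the mean of 18 and 22 h (late) against 0 h, of 8 and 12 h (day) against 0 h, late against day, each time against 0 h, and any difference among times. Log2 CPM (prior count 2), centred by organ and averaged over the organs of each of 18 mice, were tested with limma 3.58.1 over 11679 genes kept in all organs. Differences between organs were tested in a single edgeR fit of all organs and times. RPKM use exon-union lengths and TMM factors over all organs. SE is the absolute log2 fold change over the root of F. Alternatives were DESeq2 1.42.0, library totals, upper quartile factors, no filter, a filter at 30 counts, all libraries, a block on replicate number, lane and library series as covariates, 0 and 2 h as reference, an added fold threshold, a prior count of 0.5 for mouse means, and leaving out libraries, mice or organs. Those with 8 or 12 h alone, without 4 libraries picked by hand, with mice left out of all organs at once, and with a mouse term in the test of organ differences (edgeR with mice as fixed terms, and limma voom with a common correlation within mice) were chosen after seeing the data. The fits were tested on simulated data. Library totals moved the median log2 change of all genes by over 0.1 from TMM in BRN (-0.174), STM (0.154), iBAT (0.14) and pgWAT (-0.113) late against 0 h, and in BRN (-0.175) and iBAT (0.134) at 8 and 12 h against 0 h. Members and gene lists were chosen with earlier results of these data known. Genes named beside the members are at most 3 called list genes with the smallest adjusted p per organ and contrast, the 5 closest correlates of Hspa1b, Hsp90aa1, Hspa8, Cirbp and Rbm3 by Pearson r, and tissue markers.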

Additional observations from a re-analysis of the deposited data

Results flagged for a closer look

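For 5 of the members, a joint edgeR test over the 9 organs gave an adjusted p under 0.05 that the change with fasting is not the same in every organ. Late against 0 h these were Hspa1a (0.0285), Hspa1b (0.0152), Hsp90aa1 (1.88e-05) and Hsph1 (0.000607). Late against day they were Hspa1a (0.000111), Hspa1b (0.000107), Hsp90aa1 (0.000927), Hsph1 (0.000252) and Hspb1 (0.0446). Of all genes 49.4% and 34.4% passed the same tests. The test treats the organs of a mouse as independent, includes mouse 3 and has no term for library series. With mice as fixed terms edgeR calls the same members, and limma with a common correlation within mice does not call Hspa1a (0.113) or Hspa1b (0.44) against 0 h or Hspb1 (0.249) late against day, where 58.8% and 43.8% of genes passed. That common correlation was estimated at 0.0119, and the limma fit without it did not call these 3 either. Each group has 2 or 3 libraries, so no single library was tested for standing apart.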

How the results depend on the processing

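Calls among the members depend on which libraries enter and on how batch is treated, and the cause was not tested. Counts are of member and organ pairs, with the reported count in brackets. The share of all pairs that passed also differs between settings, so a changed count is not a result about the members alone. With lane no OB or STM gene passed late against 0 h. With series no BRN gene passed there, and no iBAT gene late against day. The shares with DESeq2 and with 12 h alone are given above, and for most other settings they are not given. Late against 0 h, pairs higher (6) became 2 with all libraries, 1 with lane and 3 with library series as covariate, 3 without the 4 libraries picked by hand, and 0 with a fold threshold. Pairs lower (6) became 11 with DESeq2, 3 with library totals, 2 with lane and 10 with 0 and 2 h as reference. Day against 0 h, pairs higher (1) became 2 with DESeq2, 4 with no filter, and 0 with all libraries, with lane, with series and with 8 h alone, and pairs lower (0) became 1 with no filter. Late against day, pairs higher (5) became 3 with lane, and pairs lower (12) became 17 with DESeq2, 6 with series, 0 with 12 h alone and 7 with 8 h alone. With mouse means, members higher late against 0 h (1) became 0 with all libraries, and members lower (1) became 0 without BRN, iBAT or pgWAT and with all libraries, and 2 without STM and without the 4 libraries. Late against day, members higher (1) became 2 with library totals and 0 with all libraries, and members lower (5) became 3 with library totals and without OB, BST or iBAT, 1 without LIV and 0 with all libraries.

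Leaving out a library or a mouse of the 2 groups compared gave 1 to 7 pairs higher and 0 to 9 lower late against 0 h, 0 to 5 and 0 to 2 day against 0 h, and 2 to 6 and 2 to 14 late against day. Leaving out mouse 3, which is in neither group of late against day, gave 6 higher and 19 lower there. With mouse means, leaving out any of the 18 mice gave 0 to 1 higher and 0 to 2 lower late against 0 h, 0 and 0 day against 0 h, and 1 to 2 and 1 to 6 late against day. Where this leaves a group with 1 library, that library is assumed to vary like the other groups. Of single-gene values under the other alternatives, 423 kept their side of the threshold, 39 gained a call, 0 changed direction and the rest lost the call. Lane could not be fitted in CBL and BST, which have 1 lane number each, and lane and series were not run where the contrast could not be estimated.

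Replicate numbers stand for separate mice at each time, so samples are not paired by them, and libraries of the same number correlated at a mean r of -0.07 (psWAT) to 0.157 (iBAT). A replicate block gave 6 pairs higher and 8 lower late against 0 h, 1 and 1 day against 0 h, and 7 and 13 late against day, and with mouse means 1 and 3, 0 and 0, and 2 and 7. The shares of all genes under this block are not given here.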
